A study of Mus musculus with 14 samples.

Results

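AP-1 is the transcription factor formed by pairs of Fos and Jun proteins, and the genes described here are Fos, Fosb, Jun, Junb and Jund together with Atf3, a related factor of the ATF/CREB family. Probe sets were taken by symbol: every non-control probe set of the array whose annotation named 1 of these 6 genes was used. The 6 genes themselves were chosen with earlier results of these data known. This gave 10 probe sets of the 12422 tested, or 6 of the 8251 genes with a symbol of their own. Fos and Junb had 2 probe sets each, Atf3 had 3, and Fosb, Jun and Jund had 1 each.

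The study followed medulloblastoma, a tumor of the cerebellum, in mice that carried 1 disrupted copy of patched (Ptch1), the receptor that restrains hedgehog signalling. Each of 14 samples of dissociated cerebellar or tumor cells was hybridised to 1 oligonucleotide array, which gives 1 intensity per probe set. The stages compared were GCP, the granule cell precursors of the cerebellum taken at 7 days of age (n = 4), pretumor, preneoplastic cells taken at 6 weeks (n = 5), and tumor, medulloblastoma cells from sick animals 10 to 25 weeks old (n = 5). The mice of all 3 stages were patched heterozygotes, so no array came from a mouse with both copies intact, and every later stage is also an older one, so stage and age cannot be told apart. Per the labels, papain and DNase were used to dissociate the tissue, the cells at the interface of the 35% and 65% Percoll layers were kept, and the suspension was frozen without flow sorting. The labels mention breeding to 129X1/SvJ and crosses to a Math1-GFP line without saying which of these mice gave the arrays. Nor do they say whether the samples of a stage are separate animals, and the p-values rest on sample spread alone, part of which may be technical.

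Proteins of the Fos and Jun families share a basic leucine zipper, by which they pair and bind DNA. Jun proteins bind as pairs with each other or with Fos proteins, whereas Fos proteins need a Jun partner. Most of these genes are immediate early genes: in neurons and many other cells, growth factors, depolarisation or stress switch them on within minutes through MAP kinases, SRF and CREB, without new protein synthesis. Atf3 is induced by stress and injury in many cell types, and can pair with Jun proteins.

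The promoters of the 4 members that were called at least once below are shown around the letters searched for. Whether these letters have a part in the array results was not tested. Sequences are from RefSeq, build GRCm38.p6, written 5′ to 3′ on the strand of the gene. All 6 members matched the promoter table, whose windows run from 250 bases before to 50 bases after the annotated start. Capitals mark TGACG, the core of the cAMP response element bound by CREB and ATF proteins, or, in Jun, TGACNTCA, its full-length form with 1 free base.
Fos, chr12:85473740-85473889, plus strand: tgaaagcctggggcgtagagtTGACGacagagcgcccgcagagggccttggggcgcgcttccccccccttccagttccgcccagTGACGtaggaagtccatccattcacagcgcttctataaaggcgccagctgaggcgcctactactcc
Fosb, chr7:19310088-19310117, minus strand: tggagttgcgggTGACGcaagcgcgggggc
Jun, chr4:95052223-95052372, minus strand: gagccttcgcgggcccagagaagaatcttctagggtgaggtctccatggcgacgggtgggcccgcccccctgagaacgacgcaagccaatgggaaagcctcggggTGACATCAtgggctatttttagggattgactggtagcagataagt
Atf3, chr1:191183334-191183483, minus strand: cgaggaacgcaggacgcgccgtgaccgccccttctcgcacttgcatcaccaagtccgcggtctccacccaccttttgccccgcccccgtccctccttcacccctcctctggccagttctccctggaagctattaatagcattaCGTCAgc
TGACG began 129 and 66 bases before the start of Fos, 60 bases before that of Fosb and 106 bases before that of Junb. In Atf3 it lay on the strand opposite the gene, so that it reads CGTCA on the strand printed, 7 bases before the start. TGACNTCA, which shares its first 4 letters with TGACG, was found in the Jun window alone, 45 bases before the start. Searched on both strands, TGACG was in 20.8% of all 32851 promoter windows and TGACNTCA in 8.83%, so neither is rare. The classical AP-1 letters TGANTCA were in none of the 6 windows and in 7.81% of all windows. The motifs were picked with the array results known, and a match is a run of letters, not a measured binding site.

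The arrays were alike in scale, with medians of 2.04 to 2.14 log2 units. Of all values 70.5% lay below an intensity of 16, or 4 on the log2 scale, in a narrow band that is called the low band here. Within a stage the arrays correlated at 0.994 to 0.998 in GCP, 0.987 to 0.998 in pretumor and 0.983 to 0.996 in tumor. GCP 1 resembled GCP 2 and GCP 3 resembled GCP 4 more than the pairs resembled each other, so that the 4 GCP arrays may not be 4 independent samples. Member results are therefore also given against each pair of GCP arrays alone where that changes a call. Of 7 markers of the granule cell lineage, Atoh1, Gabra6 and Cbln1 were below 16 on all arrays, and the summed intensity of the list was 14330 to 16808 in GCP, 7906 to 11246 in pretumor and 8486 to 12299 in tumor.

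Fosb, Fos, Jun and Atf3 were called higher in tumor than in GCP, and Fosb and Atf3 were already called higher in pretumor. The Jun tumor call held in 14 of 27 alternative analyses, and the Fosb pretumor call in 12 of 27. Fosb showed the largest positive difference of all 12422 probe sets in tumor against GCP, a rank that counts GCP values inside the low band. It was in the low band on all GCP arrays and at least 19.7-fold higher in tumor. Atf3 stood 3.92-fold higher in pretumor and 2.97-fold higher in tumor than in GCP by its brightest probe set. Its second probe set, 104156_r_at, passed in pretumor but not in tumor (limma adjusted p = 0.0649). Junb and Jund passed the test in neither comparison, and no member passed it between tumor and pretumor. In a bulk suspension, a change in the share of cells of a type and a change in RNA per cell cannot be told apart.

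**Figure D1:**
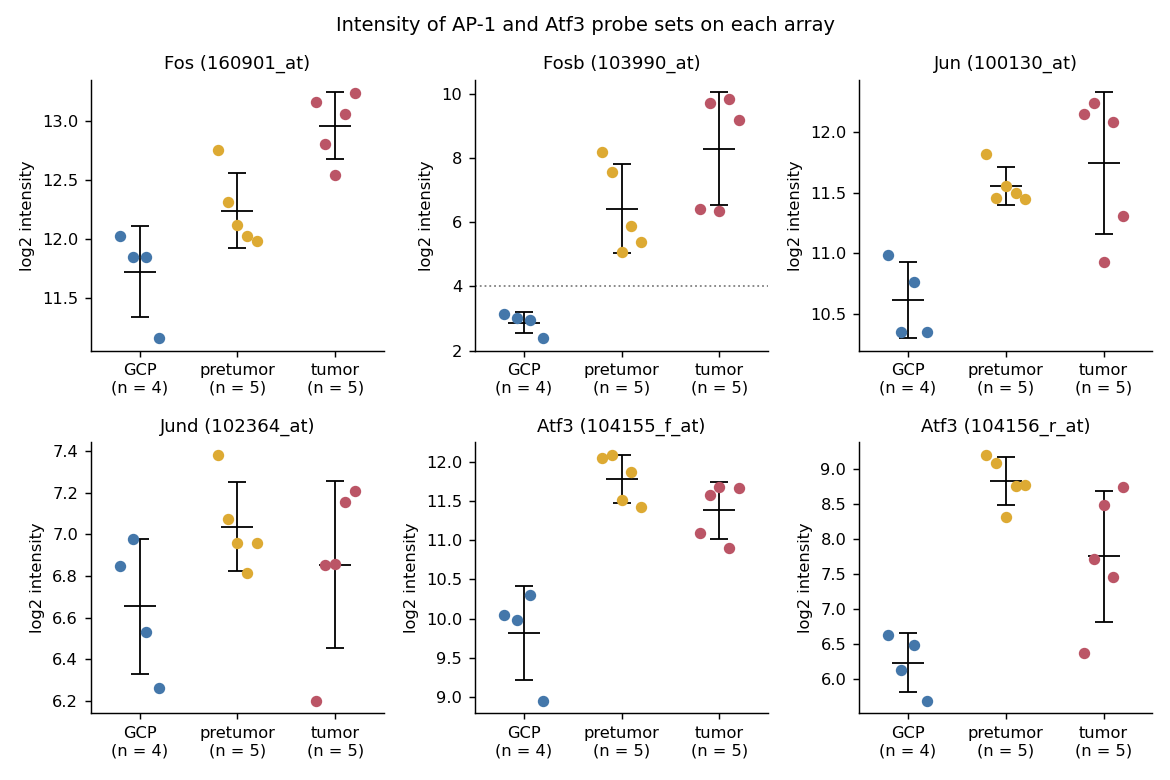
Log2 intensity (vertical axes, a separate scale in each panel) of the 6 member probe sets above the low band, on each array of GCP, pretumor and tumor. Points are arrays, long bars are means and whiskers are SD; the dotted line in the Fosb panel is an intensity of 16, which no GCP array reached, whereas the Jund panel shows overlapping stages.

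Fosb encodes a Fos protein whose truncated splice form is known to build up in neurons under repeated stimulation. Its probe set, 103990_at, read 3.15, 3.01, 2.95 and 2.38 log2 units on GCP 1 to GCP 4. It read 8.20, 7.57, 5.07, 5.90 and 5.38 on pretumor 1 to pretumor 5, and 6.43, 9.72, 6.35, 9.84 and 9.18 on tumor 1 to tumor 5. All GCP arrays were in the low band and all pretumor and tumor arrays above it, so neither later stage overlapped GCP. Within the later stages the spread was wide: tumor 1 and tumor 3 lay well below the other tumor arrays and below pretumor 1 and pretumor 2.
Tumor averaged 8.30 ± 1.77 and GCP 2.87 ± 0.34 (SD, n = 5 and n = 4), a log2 difference of 5.43 (SE 0.88, 95% interval 3.50 to 7.35, limma adjusted p = 0.00418). Pretumor averaged 6.42 ± 1.39, which was 3.55 above GCP (SE 0.88, interval 1.62 to 5.48, adjusted p = 0.0428), or at least 5.36-fold. This difference ranked 3 from the top among all probe sets, a rank that counts GCP values inside the low band. By fold, probe sets above this 5.36-fold limit included Bag3 (8.97-fold), Kl (at least 8.47-fold), Car2 (7.16-fold) and Lyz2 (6.82-fold). Atf3 104156_r_at (6.08-fold) and Mal (at least 5.94-fold) were above it too. These were seen among the members and listed genes, so the place of Fosb by fold over all probe sets is not given. The pretumor call was close to the threshold: leaving out 1 of 9 of the 14 arrays, among them each GCP array, pretumor 1, 2, 4 and 5 and tumor 5, gave adjusted p of 0.0522 to 0.12. Against GCP 1 and GCP 2 alone the pretumor difference was 3.34 (adjusted p = 0.302) and the tumor difference 5.22 (adjusted p = 0.0706). Against GCP 3 and GCP 4 alone they were 3.76 (adjusted p = 0.17) and 5.63 (adjusted p = 0.0383). Over 27 alternatives the tumor adjusted p was 0.000418 to 0.0706, with differences of 3.87 to 5.92. A floor of 16 reduced the pretumor difference to 2.42 (adjusted p = 0.39, the highest of 27 alternatives, whose lowest was 0.00247). The log2(value + 16) scale gave 2.19 (adjusted p = 0.181).

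Fos encodes the founding member of the family. Probe set 160901_at read 12.02, 11.85, 11.85 and 11.15 log2 units on GCP 1 to GCP 4, 12.75, 12.31, 12.12, 12.02 and 11.98 on pretumor 1 to pretumor 5, and 13.15, 12.80, 12.54, 13.05 and 13.23 on tumor 1 to tumor 5. Every tumor array was above every GCP array, while pretumor reached into both neighbours, with pretumor 5 below GCP 1 and pretumor 1 above tumor 3. Fos was above the low band on all arrays, so its stage difference was a step on a signal already present in GCP.
Tumor averaged 12.96 ± 0.29 and GCP 11.72 ± 0.38, a difference of 1.24 (SE 0.21, interval 0.78 to 1.70, adjusted p = 0.00551), or 2.36-fold. This call held without any single array, but against GCP 1 and GCP 2 alone the difference was 1.02 (adjusted p = 0.0648, the highest of 27 alternatives, whose lowest was 0.00108). Pretumor averaged 12.24 ± 0.32, which was 0.52 above GCP (interval 0.06 to 0.98, adjusted p = 0.244). Tumor was 0.72 above pretumor (interval 0.28 to 1.15, unadjusted p = 0.00363, adjusted p = 0.151), and neither of these steps passed the test over all probe sets. The other Fos probe set, 161716_at, was never above the low band, at 2.32 ± 0.24 in tumor and 1.92 ± 0.09 in GCP, and did not pass (adjusted p = 0.0779).

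Jun encodes the main partner of Fos. Probe set 100130_at read 10.99, 10.35, 10.77 and 10.35 log2 units on GCP 1 to GCP 4, 11.82, 11.46, 11.56, 11.50 and 11.45 on pretumor 1 to pretumor 5, and 12.15, 12.25, 10.93, 12.09 and 11.31 on tumor 1 to tumor 5. The pretumor arrays lay close together and all above GCP. The tumor arrays spread over more than the pretumor ones, with tumor 3 just below GCP 1.
Tumor averaged 11.75 ± 0.59 and GCP 10.61 ± 0.32, a difference of 1.13 (SE 0.26, interval 0.56 to 1.70, adjusted p = 0.0288), or 2.19-fold. Leaving out GCP 2, 3 or 4, or tumor 1, 2 or 4, ended this call, with adjusted p of 0.0591 to 0.1. Against GCP 1 and GCP 2 alone the difference was 1.08 (adjusted p = 0.229), and against GCP 3 and GCP 4 alone 1.19 (adjusted p = 0.119). Fitting tumor and GCP without the pretumor arrays gave adjusted p = 0.125. Over 27 alternatives the Jun tumor difference was 1.01 to 1.34 and its adjusted p 0.00413 to 0.229.
Pretumor averaged 11.56 ± 0.15, a difference of 0.94 from GCP (SE 0.26, interval 0.37 to 1.51, adjusted p = 0.0684), or 1.92-fold, which did not pass although the stages did not overlap. It passed when pretumor and GCP were fitted without the tumor arrays (adjusted p = 0.0128) and when tumor 3 alone was left out (adjusted p = 0.0199). Over 27 alternatives the adjusted p for Jun lay between 0.00928 and 0.371.

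Junb and Jund encode the other Jun proteins. Junb is itself an immediate early gene, and Jund is usually made at a steady level. Jund, by 102364_at, read 6.85, 6.98, 6.53 and 6.26 log2 units on the GCP arrays, 7.38, 7.07, 6.96, 6.81 and 6.96 on the pretumor arrays and 6.20, 6.85, 6.86, 7.16 and 7.21 on the tumor arrays. All 3 stages overlapped, with the lowest value on tumor 1 and the highest on pretumor 1. Pretumor was 0.38 above GCP (interval -0.07 to 0.84, adjusted p = 0.437) and tumor 0.20 above GCP (interval -0.26 to 0.65, adjusted p = 0.783).
Both Junb probe sets were in the low band on every array, so Junb was close to the bottom of the range in these data. Probe set 102362_i_at averaged 2.02 ± 0.14 in GCP, 2.13 ± 0.29 in pretumor and 2.46 ± 0.50 in tumor, with its highest value, 3.27, on tumor 5. Probe set 102363_r_at ran from 1.98 to 2.30 in GCP, from 2.01 to 2.45 in pretumor and from 2.16 to 2.86 in tumor. Neither passed in any comparison, the lowest adjusted p being 0.307 for 102363_r_at in tumor against GCP, and no fold is given for a pair of low-band means. The suffixes mark compromises in probe design: _f_at probes may be shared within a gene family, _r_at sets dropped a selection rule, and _i_at sets have fewer probes than usual.

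Atf3 encodes a factor that represses or activates depending on its partner. Probe set 104155_f_at read 10.04, 9.99, 10.30 and 8.94 log2 units on GCP 1 to GCP 4, 12.05, 12.09, 11.52, 11.87 and 11.42 on pretumor 1 to pretumor 5, and 11.10, 11.58, 11.69, 10.90 and 11.67 on tumor 1 to tumor 5. Every pretumor and tumor array was above every GCP array, and pretumor and tumor overlapped.
Pretumor averaged 11.79 ± 0.31 and GCP 9.82 ± 0.60, a difference of 1.97 (SE 0.27, interval 1.37 to 2.57, adjusted p = 0.00186). Tumor averaged 11.39 ± 0.36, a difference of 1.57 from GCP (SE 0.27, interval 0.97 to 2.17, adjusted p = 0.00648). This probe set alone among the members was called in both comparisons with GCP under all 27 alternatives, with differences of 1.68 to 2.17 for pretumor and 1.28 to 1.77 for tumor. It is an _f_at set, so its probes may be shared within a gene family.
The second Atf3 probe set, 104156_r_at, read 6.62, 6.12, 6.49 and 5.68 on the GCP arrays, 9.21, 9.09, 8.31, 8.77 and 8.78 on the pretumor arrays and 6.36, 7.71, 8.49, 7.45 and 8.74 on the tumor arrays. Pretumor was again clear of GCP, but tumor 1 fell among the GCP values.
For this probe set, pretumor averaged 8.83 ± 0.35 and GCP 6.23 ± 0.42, a difference of 2.60 (SE 0.42, interval 1.69 to 3.51, adjusted p = 0.0041), or 6.08-fold. Against GCP 1 and GCP 2 alone the difference was 2.46 (adjusted p = 0.0628), and with each GCP pair averaged into 1 sample its adjusted p was 0.0519. It was called under the other 25 of 27 alternatives, the lowest adjusted p being 0.00014. Tumor averaged 7.75 ± 0.94, a difference of 1.52 from GCP (interval 0.61 to 2.43, adjusted p = 0.0649) that missed the threshold. This difference passed under 4 of 27 alternatives. They were leaving out tumor 1 (1.87, adjusted p = 0.00785), median centring (adjusted p = 0.0443), array weights (0.0147) and a filter for 16 or more on at least 4 arrays (0.0182). The highest adjusted p of the 27 was 0.369. Tumor against pretumor differed by -1.08 (interval -1.94 to -0.22, adjusted p = 0.297), where 104155_f_at differed by -0.40 (interval -0.97 to 0.16, adjusted p = 0.627). The third Atf3 probe set, 161645_r_at, was in the low band on every array, between 1.37 and 1.71, and did not pass in any comparison.

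**Figure D2:**
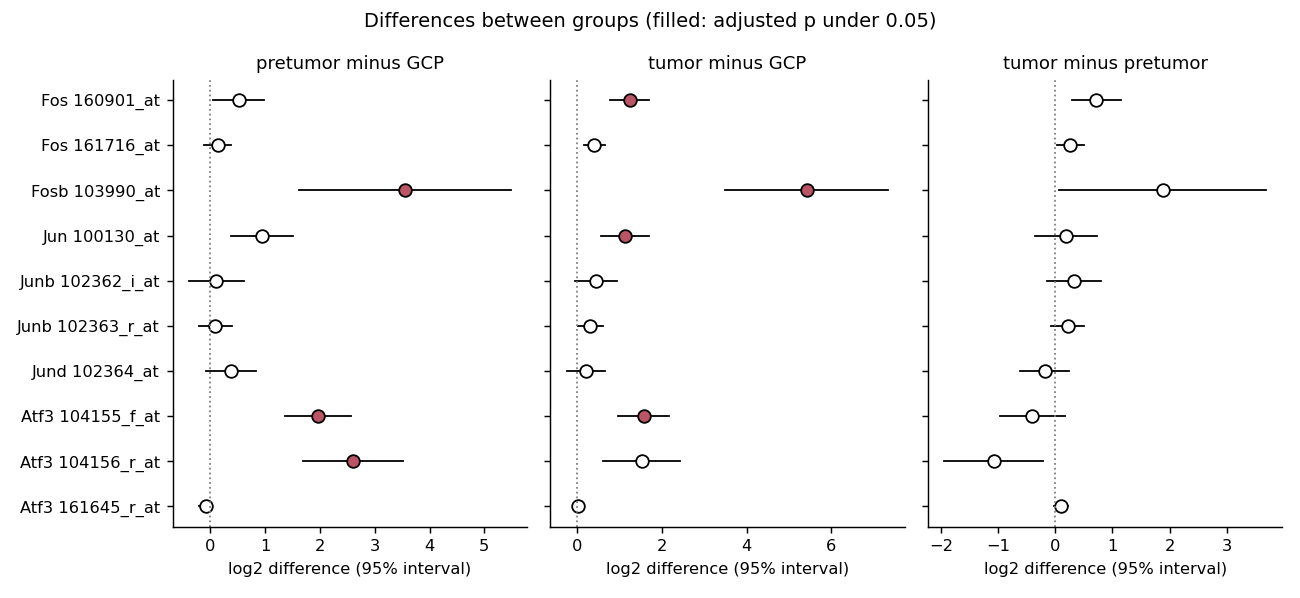
Log2 difference (horizontal axis) with its 95% interval for each of the 10 member probe sets (rows) for the contrasts named above the panels. Filled points had a limma adjusted p under 0.05: 3 in the left panel, 4 in the middle and 0 on the right; Fosb has the widest intervals.

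Counted over all members, 3 of the 10 probe sets were called higher in pretumor than in GCP (Fosb and both of the brighter Atf3 sets) and 0 lower, where 1.67% of all probe sets were called higher and 2.69% lower. In tumor against GCP, 4 of 10 were called higher (Fos, Fosb, Jun and Atf3 104155_f_at) and 0 lower, against 1.41% and 3.19% of all probe sets. Between tumor and pretumor 0 of 10 were called by limma, where 0.209% of all probe sets were called higher and 0.789% lower. At an unadjusted p under 0.05 the members numbered 5, 7 and 4 in these 3 comparisons, and the share of all probe sets was 15.4%, 15.4% and 11.3%. Stages lay apart, with every array of the later stage above the earlier, for 4, 3 and 0 of the members and for 4.65%, 3.28% and 1.01% of all probe sets. The median member difference was 0.45 in pretumor minus GCP, 0.79 in tumor minus GCP and 0.20 in tumor minus pretumor, and the median over all probe sets was -0.01, 0.00 and 0.01. Of the 10 probe sets 4 were below 16 on all arrays, and 5 were above it on all 14. The comparisons with GCP share the GCP arrays. The members were chosen with earlier results of these data known, so the counts beside these shares are descriptions and not an independent test. With each GCP pair averaged into 1 sample, 1 member was called in pretumor against GCP and 2 in tumor against GCP.

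**Figure D3:**
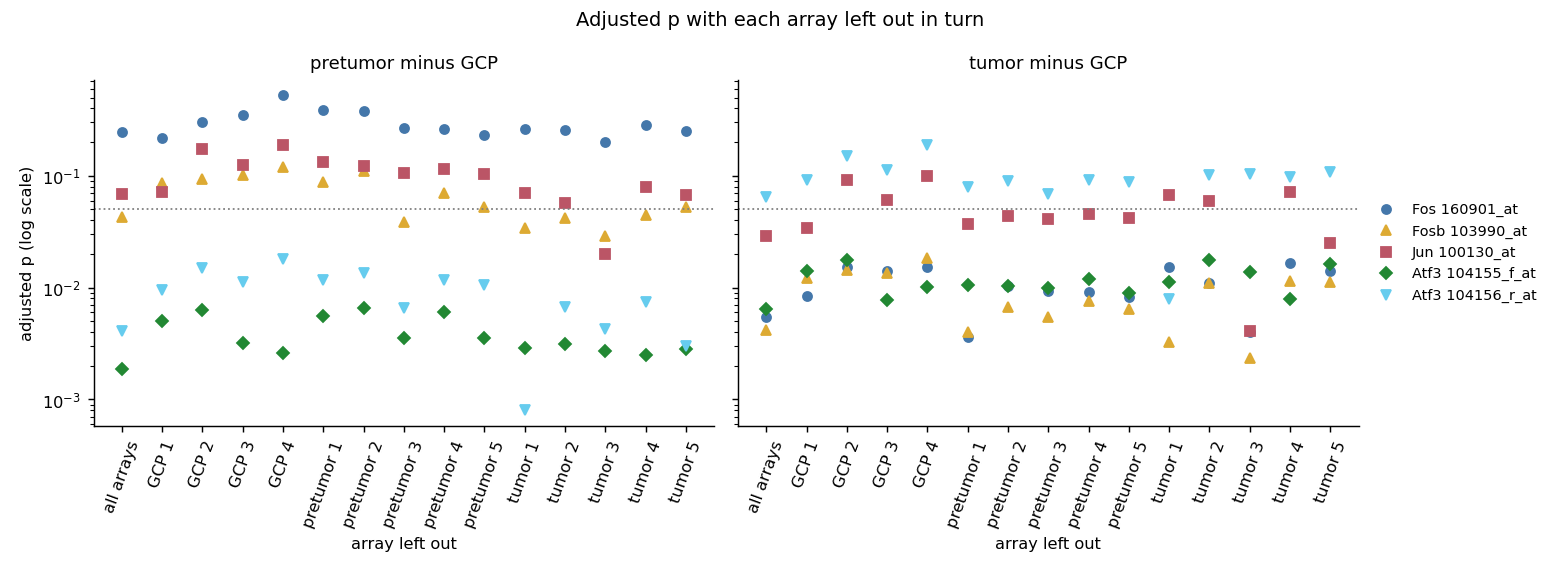
Adjusted p (vertical axis, log scale) of 5 member probe sets with all arrays and with each of the 14 arrays left out in turn (horizontal axis), for pretumor minus GCP and tumor minus GCP; the dotted line is 0.05. Atf3 104155_f_at stays below the line in both panels, Fosb on the left and Jun on the right lie on both sides of it, and Jun on the left and Atf3 104156_r_at on the right drop below it once each.

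Within a stage the members did not all move together. Deviations from the stage means over the 14 arrays correlated most for Jund with Atf3 104156_r_at, at 0.70. They correlated at 0.68 for the 2 brighter Atf3 probe sets, 0.67 for Fosb with Jund, 0.52 for Fos with Fosb and 0.47 for Fos with Jun. Jun with Atf3 gave -0.07 by 104155_f_at and -0.45 by 104156_r_at, and Jun with Jund gave -0.10. All other pairs were positive. These are descriptions of 14 arrays that share 3 stage means, and points of 1 array share its RNA and scaling. GCP 4 was the lowest GCP array for Fos, Fosb, Jund and both brighter Atf3 sets, and pretumor 1 was the highest pretumor array for Fos, Fosb, Jun, Jund and Atf3 104156_r_at. The tumor arrays split differently by gene: tumor 3 was lowest for Fos, Fosb and Jun, and tumor 1 was lowest for Jund and Atf3 104156_r_at.

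**Figure D4:**
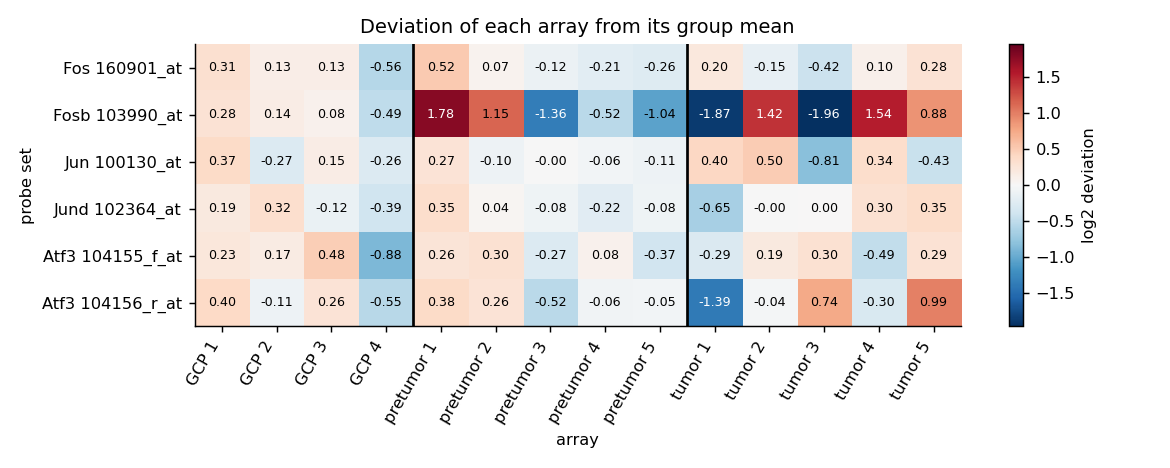
Deviation of each array (columns) from its stage mean, in log2 units (colour and printed value), for the 6 member probe sets above the low band (rows). Fosb deviates most, between -1.96 on tumor 3 and 1.78 on pretumor 1, and GCP 4 is negative in all 6 rows.

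The genes most alike in pattern were ranked by Pearson r over the 14 arrays among 2991 genes whose mean intensity reached 16. For Fos they were Egr1 (r = 0.939), an immediate early zinc-finger factor, then Pald1 (0.897) and Klf4 (0.858). Egr1 averaged 8.62 ± 0.57 log2 units in GCP, 9.51 ± 0.58 in pretumor and 10.08 ± 0.60 in tumor. For Fosb they were Gdpd3 (0.935), Pald1 (0.883) and the replication licensing factor Cdt1 (0.879). Gdpd3, like Fosb, was in the low band in GCP, at 2.67 ± 0.40, and stood at 5.76 ± 0.18 in pretumor and 7.24 ± 1.47 in tumor.
For Jun they were Pdgfa (0.930), a growth factor chain, Prm1 (0.885), a sperm protamine gene read by a family-shared probe set, and Zeb1 (0.880). Pdgfa averaged 4.83 ± 0.23 in GCP, 6.22 ± 0.40 in pretumor and 6.55 ± 0.84 in tumor. For Atf3 they were the cytokine receptor gene Il17ra (0.890) and the heat shock genes Hspa1a (0.882) and Dnajb1 (0.877). Dnajb1 averaged 7.26 ± 0.30 in GCP, 8.29 ± 0.24 in pretumor and 8.29 ± 0.17 in tumor. For Jund they were Hdac5 (0.811), a histone deacetylase, Srm (0.800) and Vars (0.795). For the low-band Junb set 102363_r_at they were Bcat1 (0.873), Bag2 (0.820) and Slc66a2 (0.810). These r values mix stage steps with spread inside the stages.

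Of 22 other immediate early genes measured, 5 were called higher in pretumor than in GCP (Egr2, Nr4a2, Klf4, Klf10 and Gadd45b) and 0 lower, where 1.99% of 8251 genes were called higher. In tumor against GCP 6 were called higher (Egr2, Nr4a2, Klf4, Ccn1, Gadd45b and Myc) and 0 lower, where 1.7% of genes were called higher. Gadd45b is named only to complete these counts, after its values were seen. The list's median difference was 0.42 in pretumor and 0.80 in tumor, and that of all genes -0.01 and 0.00.
Klf4, a zinc-finger factor of stem cells and epithelia, averaged 7.09 ± 0.61 log2 units in GCP, 9.13 ± 0.71 in pretumor and 10.63 ± 0.39 in tumor (adjusted p against GCP = 0.01 for pretumor and 0.000226 for tumor). Egr2, a zinc-finger factor of the Egr1 family, averaged 6.17 ± 0.29 in GCP, 7.61 ± 0.22 in pretumor and 7.73 ± 0.43 in tumor (adjusted p = 0.00245 for pretumor and 0.00115 for tumor). The calls of Klf4 and Egr2 held with any single array left out. The Klf4 pretumor call ended with GCP pairs averaged (adjusted p = 0.0648) and against GCP 3 and GCP 4 only (adjusted p = 0.101, the highest of 27 alternatives, whose lowest was 0.000933).
Myc, a growth regulator, was called higher in tumor than in pretumor, at 4.20 ± 0.70 and 2.42 ± 0.35 (adjusted p = 0.0129), and was the 1 gene of the list called there, where 0.133% of genes were called higher. Its tumor mean lay just above the low band, and with a floor of 16 its tumor difference was 0.38 from either stage and both tumor calls were lost (adjusted p = 0.931 against GCP and 1 against pretumor). The call against pretumor also ended with the compared stages fitted alone (adjusted p = 0.0823) and with the replicate number as a block (adjusted p = 0.0796). The calls of Klf10 in pretumor (adjusted p = 0.038) and Ccn1 in tumor (adjusted p = 0.0324) were sensitive to leaving out 1 array. The first ended without any 1 of 10 arrays and the second without any 1 of 7. Nr4a2 was in the low band in all stage means.

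Of 23 measured relatives and partners of AP-1, most of which carry a basic leucine zipper, 12 were in the low band in every stage mean. These included Fosl1 and Fosl2, the remaining Fos genes, which were chosen for naming after their values were seen. None of the 23 was called by limma in pretumor against GCP, where 1.99% of 8251 genes were called higher and 3.25% lower. Of the 23, 4 had an unadjusted p under 0.05, as had 18% of genes. In tumor against GCP 2 of 23 were called higher and 0 lower, where 1.7% of genes were called higher and 3.93% lower. They were Cebpd, a C/EBP factor of acute responses, at 7.10 ± 1.29 and 4.77 ± 0.43 (5.03-fold, adjusted p = 0.0283), and Mafg, a small Maf protein, at 4.42 ± 0.32 and 3.63 ± 0.25 (adjusted p = 0.0478). Leaving out GCP 1, 2 or 4 or tumor 2 ended the Cebpd call, with adjusted p of 0.057 to 0.0849, and leaving out any 1 of 11 arrays ended that of Mafg. Against GCP 1 and GCP 2 only the adjusted p of Cebpd was 0.141, and against GCP 3 and GCP 4 only 0.213, the highest of 27 alternatives.

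Of 24 measured MAP kinase and SRF genes, which act upstream, 14 were in the low band in every stage mean. In pretumor against GCP 0 were called higher and 1 lower (1.99% and 3.25% of all genes), and in tumor against GCP 2 higher and 0 lower (1.7% and 3.93% of all genes). Mapk8, the JNK1 kinase that phosphorylates Jun, was called lower in pretumor, at 9.01 ± 0.14 and 9.49 ± 0.09 in GCP (difference -0.48, adjusted p = 0.0154), and this call ended without GCP 4 (adjusted p = 0.0531) and with GCP pairs averaged (adjusted p = 0.125). The kinases Map3k7 (difference 0.67, adjusted p = 0.0221) and Map2k6 (0.80, adjusted p = 0.0484) were called higher in tumor than in GCP. Without tumor 1 the adjusted p of Map3k7 was 0.0511, with GCP pairs averaged it was 0.0739, and the call of Map2k6 ended without any 1 of 13 arrays.
Of 13 genes measured in a list made up mostly of feedback inhibitors, 0 were called in any comparison by limma. At an unadjusted p under 0.05 there were 3 in pretumor and 4 in tumor against GCP, and 1 in tumor against pretumor. Over all genes, 18%, 18% and 12.2% had such a p in these comparisons. Dusp6, an ERK phosphatase, read 8.36 ± 0.56 in GCP, 9.53 ± 0.40 in pretumor and 9.82 ± 0.78 in tumor (adjusted p against GCP = 0.137 for pretumor and 0.0591 for tumor). Of 27 alternatives, 3 called Dusp6 in pretumor and 5 in tumor, and the highest adjusted p was 0.718 and 0.517. Dusp1, a MAP kinase phosphatase induced along with Fos in many cells, read 11.19 ± 0.22 in GCP, 11.18 ± 0.37 in pretumor and 11.80 ± 0.61 in tumor (adjusted p = 0.342 for tumor against GCP).

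Genes known as AP-1 targets in other cells were mostly out of range: of 23 measured, 18 were in the low band in every stage mean. None was called higher by limma in pretumor against GCP, tumor against GCP or tumor against pretumor. Of all genes, 1.99%, 1.7% and 0.133% were called higher in these comparisons. At an unadjusted p under 0.05, in either direction, there were 4, 5 and 5 of the 23. Over all genes, 18%, 18% and 12.2% had such a p. Penk, the enkephalin precursor, averaged 7.71 ± 0.31 in GCP, 6.85 ± 0.27 in pretumor and 6.62 ± 0.41 in tumor, and was called lower than in GCP in pretumor (adjusted p = 0.0482) and in tumor (adjusted p = 0.0144). The pretumor call ended without any 1 of 11 arrays. The tumor call ended with tumor and GCP fitted alone (adjusted p = 0.0615), with GCP pairs averaged (0.0954), and against GCP 1 and GCP 2 only (0.144) or GCP 3 and GCP 4 only (0.0654). Mt2, a metallothionein, was called lower in tumor than in pretumor, at 5.87 ± 0.36 and 7.13 ± 0.42 (adjusted p = 0.0166), and this call ended with these 2 stages fitted alone (adjusted p = 0.0823). Of all genes, 3.25% were called lower in pretumor and 3.93% in tumor against GCP, and 0.957% in tumor against pretumor.

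**Figure D5:**
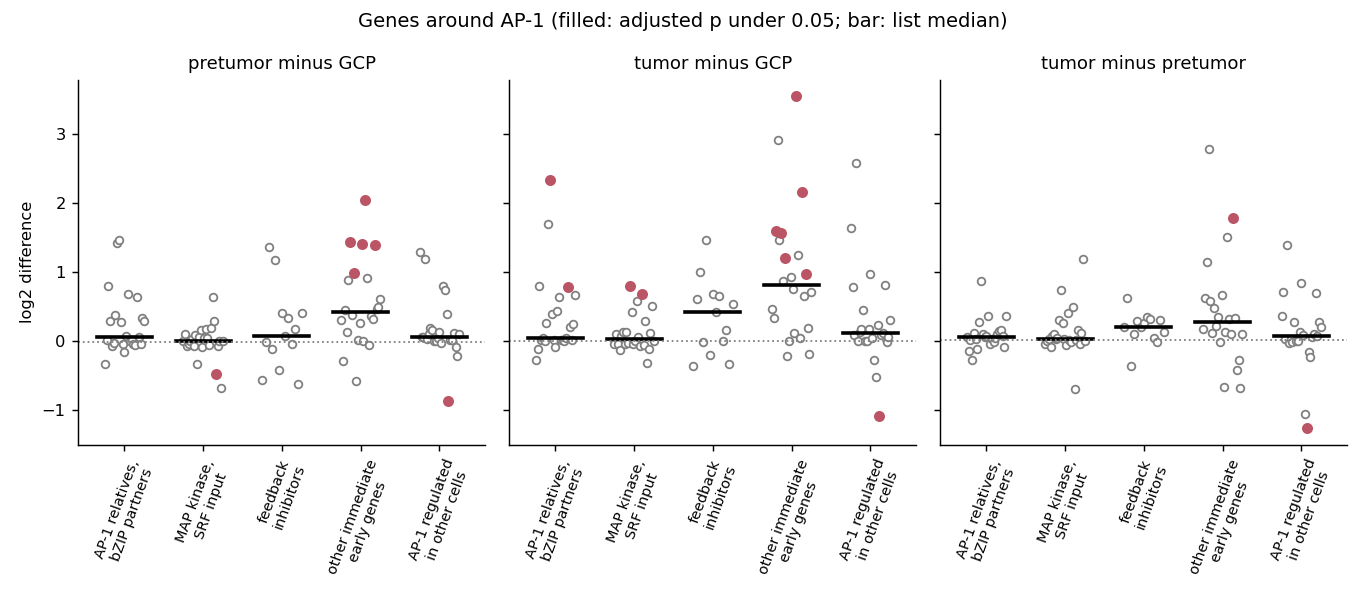
Log2 difference of each measured gene (points, vertical axis) in 5 lists of genes around AP-1, for the contrast above each panel. Filled points had an adjusted p under 0.05 and black bars are list medians; the medians of the other immediate early genes, 0.42, 0.80 and 0.27, are the highest of the 5 lists in each panel.

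Some other measures differed between stages too, not all of them in the direction of the members. Of 9 heat shock genes measured, 6 were called higher in pretumor and 3 in tumor than in GCP, where 1.99% and 1.7% of all genes were called higher. Their summed intensity was 14934 to 19939 in GCP, 27392 to 35468 in pretumor and 20766 to 31468 in tumor, without overlap between either later stage and GCP. Of 14 microglia and macrophage markers, 2 (Ctss and Lyz2) were called higher in each later stage than in GCP, beside the same 1.99% and 1.7% of all genes, with a summed intensity of 291 to 652 in GCP, 1009 to 1627 in pretumor and 755 to 2214 in tumor. The defining markers Aif1, Cx3cr1, C1qa, C1qc, Tyrobp, Itgam, Ptprc and Fcer1g were below 16 on all arrays. Endothelial markers ran the other way, with sums of 111 to 152 in GCP, 65.9 to 89.6 in pretumor and 49.1 to 65.7 in tumor, and 8 of 11 were below 16 on all arrays. Astrocyte and Bergmann glia markers summed to 9169 to 12610 in GCP, 909 to 1556 in pretumor and 436 to 1775 in tumor. Most of the GCP sum came from Fabp7, at 13.24 log2 units. Of these 8 markers, 1 was called lower (Fabp7) and 1 higher (Aldoc, in the low band) in pretumor than in GCP. In tumor 4 were called lower and 0 higher. Of all genes, 3.25% were called lower and 1.99% higher in pretumor, and 3.93% and 1.7% in tumor. Oligodendrocyte markers summed to 211 to 325 in GCP, 731 to 1478 in pretumor and 98.1 to 226 in tumor. Choroid plexus markers summed to 622 to 3210, 5146 to 14521 and 18.6 to 1154 in the same order, and both lists were highest in pretumor. Blood cell markers summed to 1919 to 4371 in GCP, 743 to 3414 in pretumor and 12.9 to 387 in tumor, and 2 of 3, Hbb-b2 and Hba-a1, were called lower in tumor than in GCP (adjusted p = 0.0157 and 0.0182), where 3.93% of all genes were called lower. The log2 ratio of 3′ to 5′ Gapdh control probe sets, a sign of RNA quality, was -0.02 to 0.56 in GCP, 0.01 to 1.08 in pretumor and 0.15 to 0.42 in tumor. For the actin control it was much higher, at 3.96 to 4.27 in GCP, 4.13 to 4.87 in pretumor and 3.93 to 4.85 in tumor. The 3′ signal of actin was thus far stronger than its 5′ signal on every array. The part of these measures in the member results was not tested.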

How the data were processed

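RNA of 14 samples in 3 stages was measured on 1 array each. The authors deposited 1 linear intensity per probe set and array. How these were summarised and normalised was not given in the sources used here, and array medians were alike, so no further scaling was applied. The 66 control probe sets were left out, which left 12422. Intensities were floored at 2.45, their 10th percentile, and taken to log2. A model of 3 stage means was fitted to all probe sets with limma 3.58.1 in R 4.3.3 (empirical Bayes, 11 residual degrees of freedom). Two-sided p-values were adjusted over 12422 probe sets (Benjamini-Hochberg), and called means under 0.05. The script was tested on simulated data.

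An "at least" fold sets the brighter mean against 16 where the other is below it. Genes of the lists were represented by their brightest probe set. Of all probe sets, 10833 had 1 symbol, 396 several and 1193 none. Named were all members, of each list up to 4 called genes with the largest difference per comparison (or the 2 brightest genes where none was called), and 3 genes per member by likeness. Members and lists were chosen with earlier results of these data known. Alternatives covered the floor, the scale, centring, quantile normalisation, a filter, the compared stages alone, array weights, an intensity trend, the replicate number as a block, the GCP pairs and each array left out. Leaving out pretumor 3 and tumor 2 together was chosen after seeing the data. The labels do not say whether the numbers in the titles pair samples. Deviations of same-numbered arrays correlated at -0.32 to 0.51 over 13 pairs, and those of different-numbered arrays at -0.52 to 0.48 over 52. Ranges this wide cannot decide whether the numbers pair samples. The number of arrays limits the precision.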

Additional observations from a re-analysis of the deposited data

Results flagged for a closer look

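Among the 30 groups of member values tested for a sample far from the others, 1 was marked, where chance marks about 1 in 20 groups. For Jun (100130_at) in pretumor, pretumor 1 was highest at 11.82 log2 units and the next array was at 11.56; this gap was 0.714 of the range of the 5 arrays. Without pretumor 1 the Jun difference from GCP did not pass, as with all arrays.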

How the results depend on the processing

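Over the 10 probe sets, 3 comparisons and their alternatives, 753 values kept their direction and their side of the threshold, 33 lost a call, 9 gained one and 3 reversed. The number of members called in pretumor against GCP, 3 with all arrays, was 1 with GCP pairs averaged and 1 with GCP 1 and GCP 2 only, and 2 to 4 with an array left out. In tumor against GCP, 4 with all arrays, it was 2 with GCP pairs averaged and 1 with GCP 1 and GCP 2 only, and 3 to 4 with an array left out. In tumor against pretumor it was 0 throughout. The reversed values were all close to 0 or uncalled: in tumor minus GCP, Jund was -0.059 and Atf3 161645_r_at -0.018 against GCP 1 and GCP 2 only, and 161645_r_at ran from -0.0068 to 0.042 with 1 array left out. Dusp1 in pretumor minus GCP, -0.01 with all arrays, was 0.00074 after median centring, 0.12 against GCP 3 and GCP 4 only, 0.056 with array weights, 0.13 without pretumor 3 and tumor 2, and from -0.13 to 0.13 with 1 array left out.

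With the replicate number as a block, although the labels do not say that the numbers pair samples, 2, 3 and 0 members were called. In that fit the Fosb difference in pretumor was 3.57 (limma adjusted p = 0.101) and the Jun difference in tumor 1.20 (adjusted p = 0.0504). Over all probe sets the calls, in the order of the comparisons above, were 541, 571 and 124, against 194, 232 and 32 with a floor of 16, 1508, 998 and 393 with array weights, 168, 198 and 69 with GCP pairs averaged, 203, 215 and 76 against GCP 1 and GCP 2 only, and 298, 310 and 70 against GCP 3 and GCP 4 only. Fitting the compared stages alone gave 689, 335 and 50, and the block 383, 436 and 76. Leaving out 1 array gave 331 to 624, 338 to 709 and 70 to 148. The cause of these changes was not tested. Signal close to the low band limits what can be said of Junb, Fos 161716_at, Atf3 161645_r_at and Fosb in GCP.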
